A study of Homo sapiens with 18 samples.

Results

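Integrins are the transmembrane receptors, each made of an α and a β chain, with which cells hold on to the extracellular matrix, and laminins are the trimers of α, β and γ chains that carry basement membranes. The 36 genes described here were chosen by symbol from the 61552 genes of the count table: 17 integrin α genes, 8 integrin β genes, the integrin-like gene ITGBL1, 5 laminin α genes, 3 laminin β genes and 2 laminin γ genes. They were followed through 18 RNA-seq libraries of HCT116, a human colorectal carcinoma line. Every group carried a knock-in of IκBα, the protein encoded by NFKBIA that holds NF-κB dimers inactive: the N108 mutant, the M3 mutant in which residues 84, 85 and 86 are alanine, or the wild-type protein (WT). Each of these was studied after 40 min with hTNFα at 0.1 µg/mL (TNF) or without treatment, with 3 replicates per group, so the groups are N108 TNF, N108 untreated, M3 TNF, M3 untreated, WT TNF and WT untreated. The labels name 1 genotype per mutant and no clone, so the effect of a mutation and of the line that carries it cannot be told apart. They also do not say whether the replicates were separate cultures, and the p-values then measure the spread between these samples, which may be technical.

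An epithelial cell of the gut rests on a basement membrane whose laminin trimers contain the α5 chain or, in trimers of epithelial anchorage, the α3, β3 and γ2 chains. It holds these laminins with integrins α3β1, α6β1 and α6β4, the last of which anchors hemidesmosomes, and binds collagen with α1β1 and α2β1. Integrins with the αv chain bind ligands that carry an Arg-Gly-Asp motif, and αvβ6 and αvβ8 also release latent TGF-β, while the β2 and β7 integrins belong mainly to leukocytes.

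Library totals lay between 49021907 and 76947190 counts. NFKBIA averaged 30.3 ± 1.82 CPM (counts scaled by library size) in untreated N108 cells and 77.9 ± 1.17 CPM in untreated M3 cells, against 91.6 ± 4.57 CPM in untreated WT cells (SD, n = 3 each). With TNF it averaged 276 ± 19.5 CPM in N108 cells, 966 ± 20.9 CPM in M3 cells and 758 ± 19.8 CPM in WT cells. These levels show the response to TNF but say nothing of the edited residues. The summed level of 8 markers of colon epithelium was 4837 to 5101 CPM in untreated N108 libraries, 4098 to 4403 CPM in untreated M3 libraries and 6252 to 6581 CPM in untreated WT libraries. KRT8 was the largest part, at 2311 CPM in N108 and 1877 CPM in M3, against 2897 CPM in WT. CDX2 went the other way, at 28.6, 25.1 and 22.5 CPM, and EPCAM had 306, 355 and 287 CPM in the same order. Of the 7 markers tested, 1 was higher and 5 lower in N108 at an adjusted p under 0.05 in edgeR (20.9% and 21.6% of all genes). In M3, 2 were higher and 5 lower (26.1% and 26.8% of all genes). The summed level of 7 fibroblast markers was 29 to 31.9 CPM in untreated N108 libraries and 31.2 to 36.9 CPM in untreated M3 libraries, against 27.1 to 27.7 CPM in untreated WT libraries. Most of it was COL1A1, at 28.0 ± 1.34 CPM in N108 and 31.7 ± 3.03 CPM in M3, against 22.8 ± 0.151 CPM in WT. COL3A1 was lower, at 2.36 ± 0.343 CPM in N108 and 2.56 ± 0.244 CPM in M3, against 4.34 ± 0.489 CPM in WT. LUM and DCN had 0 counts in every library. The part of these marker differences in the integrin and laminin values was not tested. The platelet marker PF4 had 0 counts as well, and the 7 leukocyte markers together stayed between 0.362 and 0.736 CPM. In bulk RNA, fewer cells that express a gene and less RNA per cell cannot be told apart.

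The sequences before the start sites of 7 genes are shown for neighbouring or partner genes that moved together, for a gene with several matches to the κB consensus, the site that NF-κB dimers bind, and for 2 genes that were lower. They were chosen with the values known and are not a ranking by size of change. RefSeq windows on GRCh38.p14 matched 26 of the 36 genes, with 33 windows of 250 bases before a start, some of them overlapping. The unmatched genes are ITGA3, ITGA7, ITGA9, ITGAL, ITGAX, ITGB2, ITGB3, ITGB4, LAMA1 and LAMC3. Capitals mark matches, on either strand, to the κB consensus, to the GC box GGGCGG or to the AP-1 site TGANTCA. The collagen receptor genes ITGA1 (chr5:52787666-52787915 on the plus strand) and ITGA2 (chr5:52989102-52989351 on the plus strand) are neighbours that were higher in both mutant lines than in WT. LAMB3 (chr1:209652426-209652675 on the minus strand) has 3 κB matches, the first of them 10 bp before its start. LAMB1 (chr7:108003162-108003411 on the minus strand) and LAMC1 (chr1:183023170-183023419 on the plus strand) encode chains of the same trimers and were higher by similar amounts. ITGB8 (chr7:20330650-20330899 on the plus strand) and LAMA5 (chr20:62367313-62367562 on the minus strand) were lower in both mutant lines in untreated cells.
ITGA1: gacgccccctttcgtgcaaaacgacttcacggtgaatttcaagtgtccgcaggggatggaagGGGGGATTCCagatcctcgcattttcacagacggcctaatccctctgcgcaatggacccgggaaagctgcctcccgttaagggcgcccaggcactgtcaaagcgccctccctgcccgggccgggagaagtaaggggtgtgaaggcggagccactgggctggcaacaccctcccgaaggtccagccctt
ITGA2: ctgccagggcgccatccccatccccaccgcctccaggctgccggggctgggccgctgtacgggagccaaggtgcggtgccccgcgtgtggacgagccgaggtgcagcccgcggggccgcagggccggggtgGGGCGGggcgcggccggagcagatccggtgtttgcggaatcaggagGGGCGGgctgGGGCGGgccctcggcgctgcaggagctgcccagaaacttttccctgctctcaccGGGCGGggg
LAMB3: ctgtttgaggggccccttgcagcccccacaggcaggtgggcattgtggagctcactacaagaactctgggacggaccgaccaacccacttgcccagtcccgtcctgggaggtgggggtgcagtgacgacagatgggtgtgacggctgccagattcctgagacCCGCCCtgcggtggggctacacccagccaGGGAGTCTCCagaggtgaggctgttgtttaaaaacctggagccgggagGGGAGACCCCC
LAMB1: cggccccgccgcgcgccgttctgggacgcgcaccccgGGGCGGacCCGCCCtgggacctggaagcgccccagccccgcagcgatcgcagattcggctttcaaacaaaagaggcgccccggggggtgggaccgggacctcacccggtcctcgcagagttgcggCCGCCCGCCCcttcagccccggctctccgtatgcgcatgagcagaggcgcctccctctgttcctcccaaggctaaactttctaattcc
LAMC1: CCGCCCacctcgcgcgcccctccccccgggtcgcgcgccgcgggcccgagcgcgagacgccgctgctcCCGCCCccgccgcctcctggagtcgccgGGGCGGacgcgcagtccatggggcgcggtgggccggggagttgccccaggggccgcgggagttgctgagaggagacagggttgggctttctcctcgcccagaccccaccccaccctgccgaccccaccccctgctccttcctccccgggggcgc
ITGB8: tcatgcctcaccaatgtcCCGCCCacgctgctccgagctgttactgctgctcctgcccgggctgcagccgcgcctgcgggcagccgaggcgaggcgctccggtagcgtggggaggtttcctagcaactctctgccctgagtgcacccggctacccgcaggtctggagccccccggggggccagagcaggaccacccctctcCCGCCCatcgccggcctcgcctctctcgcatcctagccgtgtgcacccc
LAMA5: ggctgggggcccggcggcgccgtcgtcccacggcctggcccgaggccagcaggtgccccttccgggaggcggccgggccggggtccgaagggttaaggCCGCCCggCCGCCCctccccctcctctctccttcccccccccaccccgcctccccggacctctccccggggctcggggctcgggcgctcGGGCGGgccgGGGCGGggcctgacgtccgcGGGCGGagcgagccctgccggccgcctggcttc
The capitals in the ITGA1 window are a κB match and those in the ITGA2 window are GC boxes, so these 2 neighbours did not share a motif among those searched. In the LAMB3 window the κB consensus matched 3 times, with 2 of the matches overlapping at the end nearest the start site, beside 1 GC box. The LAMB1 and LAMC1 windows, like those of ITGB8 and LAMA5, held GC boxes and no κB or AP-1 match. The κB consensus occurred in 6 of the 33 windows, which belong to 5 genes (ITGA1, ITGA5, ITGA10, ITGA11 and LAMB3), and in 5.21% of all 35116 windows of this kind. The GC box occurred in 18 of the 33 windows and in 42.6% of all windows, and the AP-1 site in 2 of the 33 and in 6.57% of all windows. A match describes these letters only and is not a site shown to be bound.

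The transcripts spanned from abundant to undetected. Of the 36 genes, 10 reached a group mean of at least 100 CPM, 8 had their highest group mean between 10 and 100 CPM, 9 between 1 and 10 CPM and 5 between 0.1 and 1 CPM. The remaining 4, ITGA4, ITGA8, ITGA11 and ITGAL, stayed under 0.1 CPM in every group mean. They did not pass the filter on low counts, so 32 genes were tested. Per kb of exon, ITGB1, the β chain shared by the collagen, fibronectin and most laminin receptors, had the highest mean level over all libraries at 74.3 CPM per kb. Among the α chains ITGA3, a laminin receptor chain, was highest at 52.0 CPM per kb, and among the laminins LAMA5, the α chain of the general epithelial laminins, was highest at 26 CPM per kb.

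**Figure D1:**
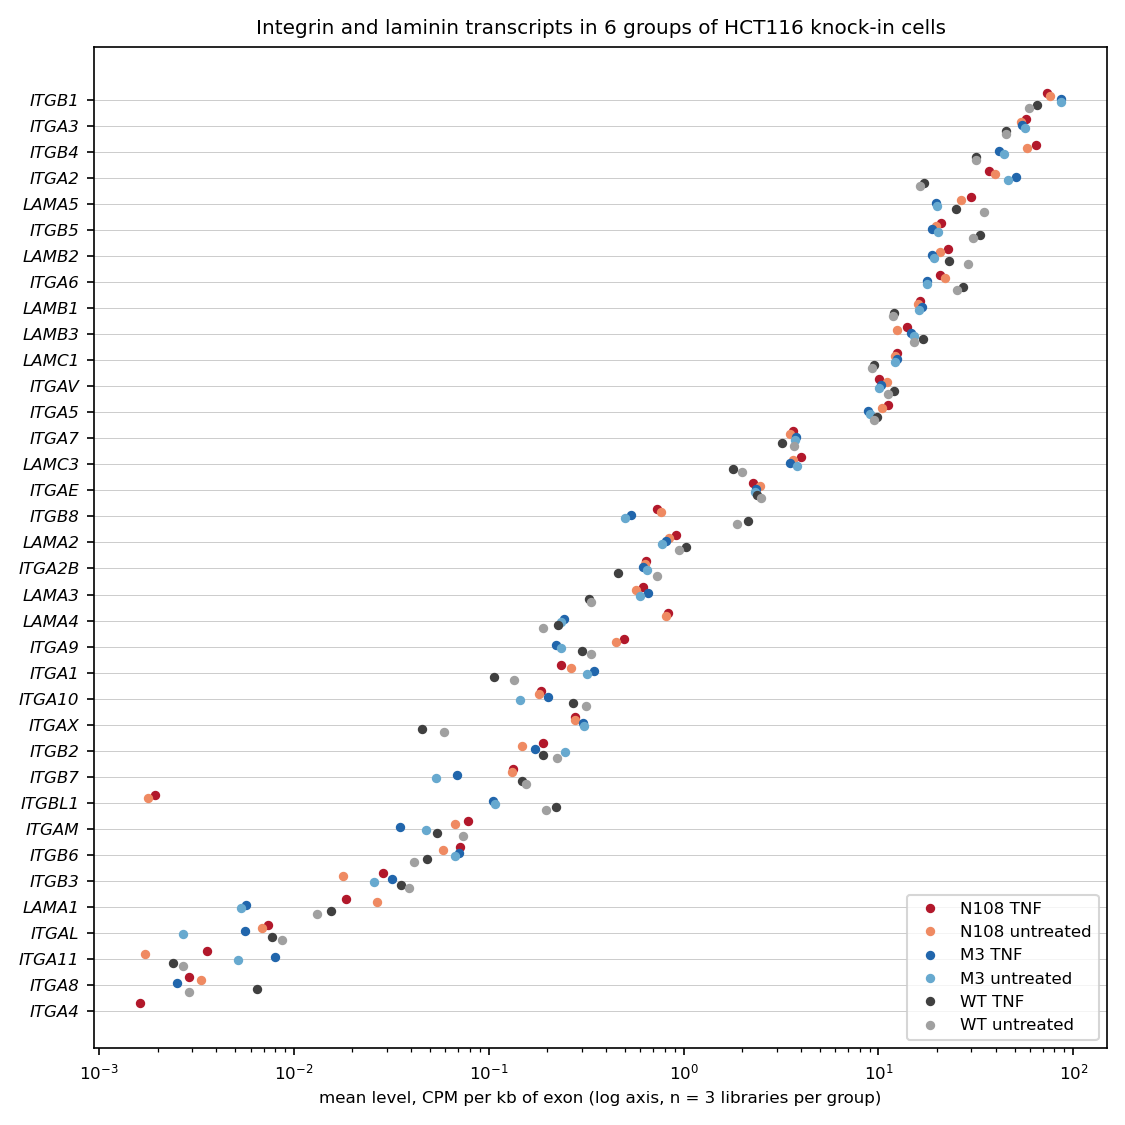
Mean level of each of the 36 genes in each group (3 libraries each), in CPM per kb of exon on a log axis, ordered by the mean over all libraries. ITGB1, ITGA3 and ITGB4 lie at the top, the 4 untested genes at the bottom, and group means of 0 (5 groups for ITGA4 and 1 for ITGA8) are not drawn.

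The integrin and laminin transcripts differed between genotypes in both directions. In untreated cells 25 of the 32 tested genes differed between N108 and WT, 14 higher and 11 lower in N108, at an adjusted p under 0.05 in edgeR's quasi-likelihood test. Over all 19038 genes tested 42.4% differed (20.9% higher and 21.6% lower). Between M3 and WT 22 of the 32 differed, 11 higher and 11 lower in M3, beside 52.9% of all genes (26.1% higher and 26.8% lower). The members' median log2 fold change was -0.02 for N108 and -0.09 for M3, beside 0.01 and 0.00 over all genes tested, so the set as a whole had no common direction. The shares were not adjusted for level, and the share called among all genes as abundant as these members was not counted.

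Both comparisons use the same WT libraries, and the values are therefore given side by side. In untreated cells the genes that passed as higher than WT in N108 and also in M3 were ITGA1, ITGA2, ITGA3, ITGAX, ITGB1, ITGB4, LAMA3, LAMA4, LAMB1, LAMC1 and LAMC3. Those that passed as lower in each were ITGA6, ITGA10, ITGB5, ITGB8, ITGBL1, LAMA2, LAMA5 and LAMB2. ITGA9 and LAMA1 were higher in N108 and lower in M3. The shares of all genes called in the same direction, or in opposite directions, in both lines were not counted. With TNF, in separate libraries of the same lines, 23 of 32 genes differed between N108 and WT (15 higher, 8 lower; 46.7% of all genes, 23% higher and 23.6% lower) and 26 of 32 between M3 and WT (12 higher, 14 lower; 54.7% of all genes, 26.9% higher and 27.8% lower). The genes called both without and with TNF were 13 higher and 7 lower in N108, and 10 higher and 11 lower in M3, with none in opposite directions. Over all genes tested 14.5% were higher and 15% lower in both conditions in N108, and 20.8% were higher and 22.6% lower in M3. ITGAE, ITGAM and ITGB6 passed in none of these 4 comparisons, and the share of all genes that did so was not counted.

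**Figure D2:**
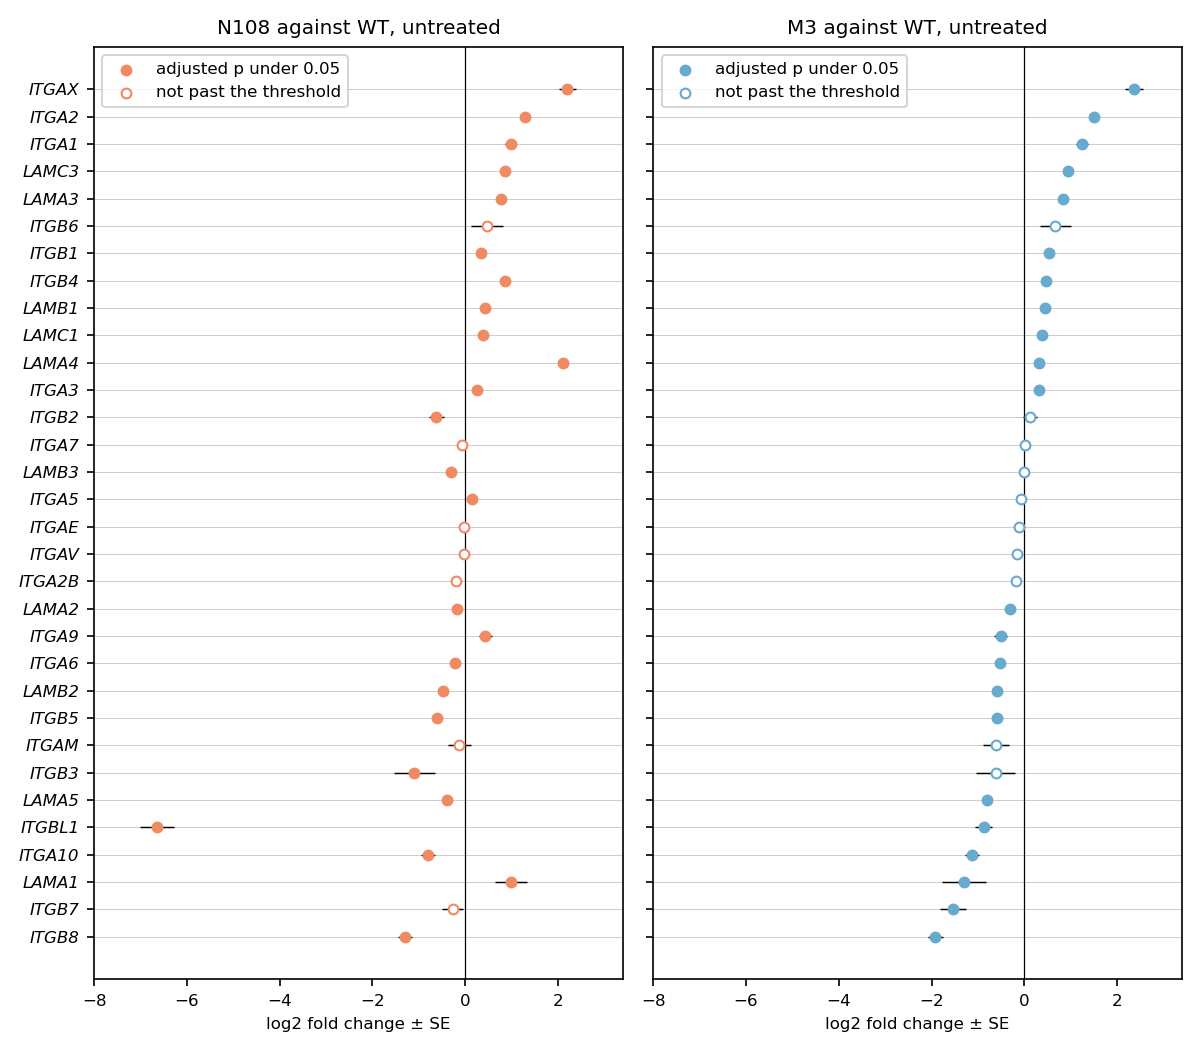
Log2 fold change (points, ± SE) of the 32 tested genes in untreated N108 cells (left) and untreated M3 cells (right), each against untreated WT cells, ordered by the M3 value. ITGAX, ITGA2 and ITGA1 lie far to the right in both panels, ITGB8 far to the left in both, and ITGBL1 and LAMA4 stand out in N108.

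Among the collagen receptors ITGA2, the α chain of α2β1 (ENSG00000164171, GRCh38 chr5:52989326-53094779, plus strand), was the abundant one and was higher in both mutant lines. Untreated N108 libraries had 325, 321 and 296 CPM and untreated M3 libraries 373, 402 and 320.4 CPM, against 133, 127 and 125 CPM in untreated WT libraries. With TNF the values were 294, 267 and 319.7 CPM in N108, 426, 396 and 381 CPM in M3, and 146, 146 and 117 CPM in WT. No mutant library came within reach of a WT library, while untreated N108 and M3 overlapped. The log2 fold change in untreated cells was 1.29 ± 0.093 (SE) for N108 (adjusted p = 9e-09, edgeR) and 1.51 ± 0.094 for M3 (adjusted p = 6.4e-10), which are 2.44-fold and 2.84-fold.

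ITGA1, the α chain of α1β1 (ENSG00000213949, chr5:52787896-52959210, plus strand), ends 30115 bp before ITGA2 on the same strand and differed in the same direction at a much lower level. Its values were 5.44, 5.09 and 4.29 CPM in untreated N108 libraries and 6.04, 6.83 and 4.94 CPM in untreated M3 libraries, against 2.61, 2.55 and 2.32 CPM in untreated WT libraries. With TNF they were 3.93, 4.11 and 4.98 CPM in N108, 6.30, 6.36 and 6.64 CPM in M3 and 2.24, 1.70 and 2.00 CPM in WT. Every mutant library again lay above every WT library. The untreated log2 fold change was 0.98 ± 0.12 for N108 (adjusted p = 2e-07, edgeR) and 1.25 ± 0.12 for M3 (adjusted p = 1.2e-09). The exons of ITGA1 overlap 475 bp of PELO, a gene on the same strand inside it. They also overlap 571 bp of RPL17P21, a processed pseudogene on the same strand. Reads from those stretches could belong to either gene, and how they were counted is not given.

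ITGA10, another collagen receptor chain that is best known from cartilage (ENSG00000143127, chr1:145891208-145910189, minus strand), was scarce and differed in the other direction. It had 1.12, 1.08 and 1.23 CPM in untreated N108 libraries and 1.06, 0.748 and 0.946 CPM in untreated M3 libraries, against 2.02, 1.80 and 2.18 CPM in untreated WT libraries. All WT libraries lay above all mutant libraries. Log2 fold changes were -0.80 ± 0.15 for N108 (adjusted p = 6.6e-05, edgeR) and -1.12 ± 0.16 for M3 (adjusted p = 7.6e-07). With TNF, ITGA10 had 1.25, 0.945 and 1.32 CPM in N108, 1.28, 1.13 and 1.43 CPM in M3 and 1.81, 1.81 and 1.51 CPM in WT, and the M3 difference of -0.41 no longer passed without any 1 of 4 libraries (adjusted p up to 0.11).

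ITGB1 (ENSG00000150093, chr10:32900319-33005792, minus strand), the partner of all these α chains, was higher by a smaller factor. Untreated libraries had 448, 463 and 451 CPM in N108 and 534, 528 and 489 CPM in M3, against 357, 359 and 358 CPM in WT. Libraries with TNF had 445, 417 and 464 CPM in N108, 509, 518 and 531 CPM in M3 and 382, 388 and 401 CPM in WT. WT was lowest and M3 highest in both conditions, with no overlap between the 3 lines. Log2 fold changes in untreated cells were 0.34 ± 0.044 for N108 (adjusted p = 3.4e-07, edgeR) and 0.53 ± 0.044 for M3 (adjusted p = 5.8e-11). Per kb, the ratio of ITGA2 to ITGB1 transcripts was 0.525 ± 0.0261 in untreated N108 cells and 0.536 ± 0.0403 in untreated M3 cells, against 0.273 ± 0.00979 in untreated WT cells (SD, n = 3).

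**Figure D3:**
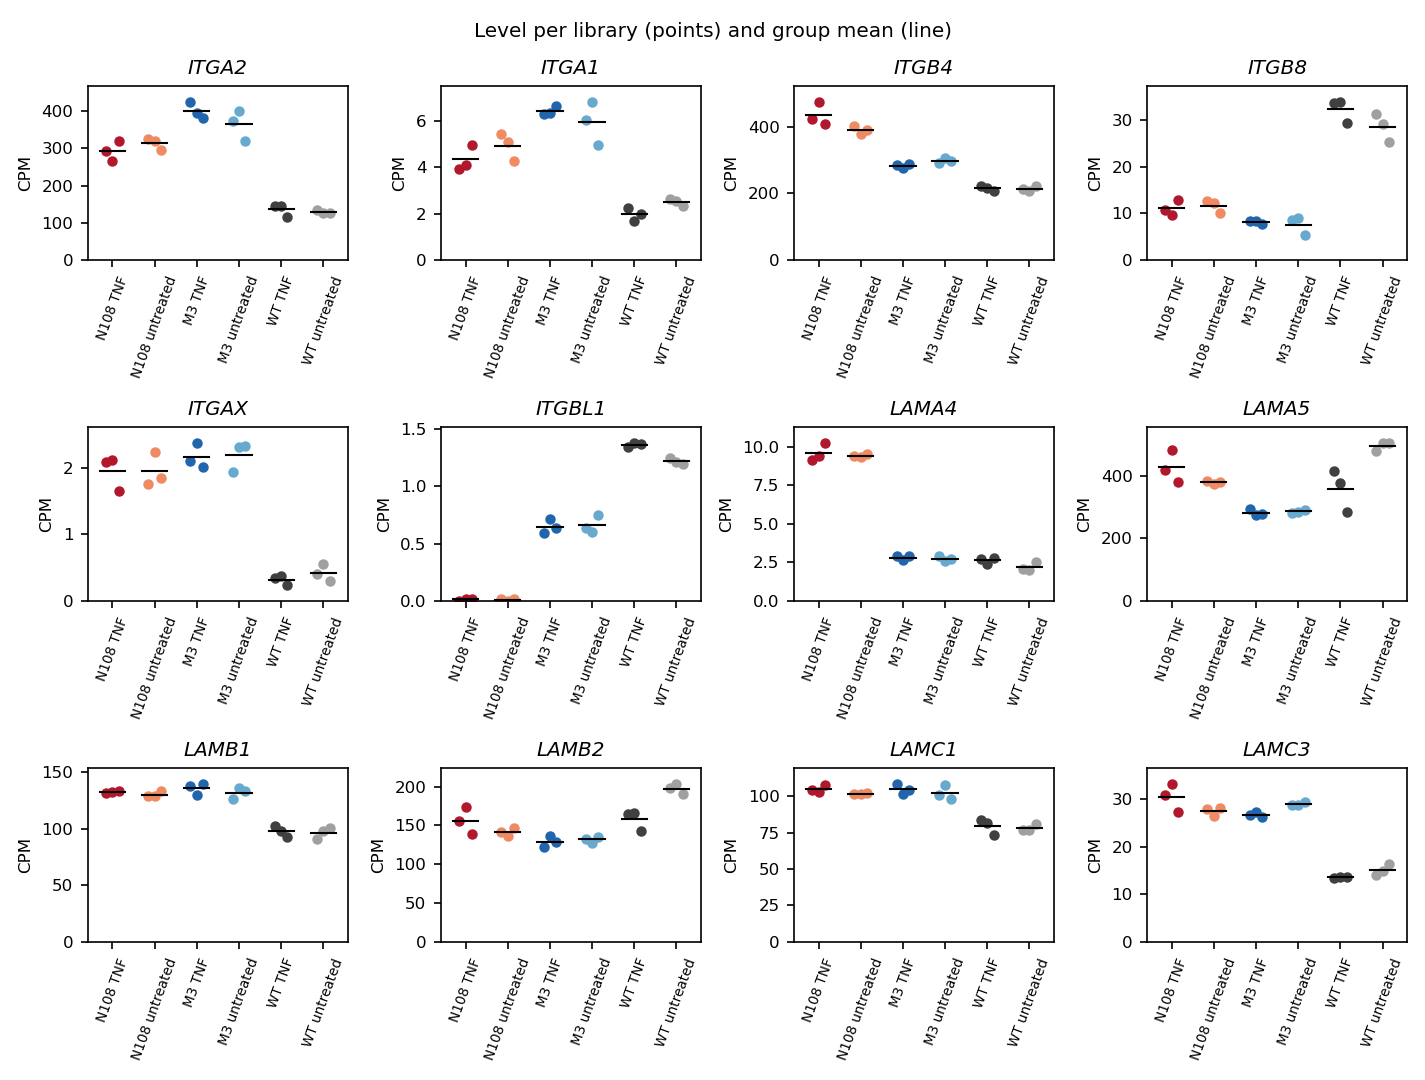
Level in CPM of 12 genes in each of the 18 libraries (points) with the group mean (line), on linear axes that start at 0. ITGA2, ITGA1, ITGAX and LAMC3 are high in all 12 mutant libraries, ITGB8 is high in all 6 WT libraries, and LAMA4 is high in the 6 N108 libraries.

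The laminin receptor chains did not differ alike. ITGA3, the α chain of α3β1 (ENSG00000005884, chr17:50055968-50090481, plus strand), had 531, 507 and 539 CPM in untreated N108 libraries and 541, 550.1 and 565 CPM in untreated M3 libraries, against 436, 435 and 459 CPM in untreated WT libraries. With TNF it had 557, 595 and 535 CPM in N108, 528, 536 and 536 CPM in M3 and 437, 443 and 449 CPM in WT. The mutant libraries all lay above the WT libraries, by a log2 fold change of 0.25 ± 0.042 for N108 (adjusted p = 2.7e-05, edgeR) and 0.32 ± 0.042 for M3 (adjusted p = 3.9e-07) in untreated cells.

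ITGB4 and ITGA6, the 2 chains of the hemidesmosomal receptor α6β4, moved in opposite directions. ITGB4 (ENSG00000132470, chr17:75721328-75757818, plus strand) had 401, 379 and 391 CPM in untreated N108 libraries and 290.3, 307 and 296 CPM in untreated M3 libraries, against 214, 208 and 221 CPM in untreated WT libraries. Libraries with TNF held 424, 475 and 408 CPM in N108, 284, 276 and 287 CPM in M3 and 223, 216 and 206 CPM in WT. N108 was highest, M3 intermediate and WT lowest, without overlap. Its untreated log2 fold change was 0.87 ± 0.049 for N108 (adjusted p = 3.1e-14, edgeR), 0.47 ± 0.049 for M3 (adjusted p = 3.9e-09) and 0.39 ± 0.049 for N108 against M3 (adjusted p = 4.1e-07).

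ITGA6 (chr2:172427354-172506282, plus strand) averaged 143 ± 2.69 CPM in untreated N108 cells and 116 ± 4.90 CPM in untreated M3 cells, against 166 ± 2.32 CPM in untreated WT cells (SD, n = 3). Its log2 fold change was -0.21 ± 0.045 for N108 (adjusted p = 0.00041, edgeR) and -0.52 ± 0.045 for M3 (adjusted p = 1.7e-10), in libraries that did not overlap. The ratio of ITGB4 to ITGA6 transcripts per kb was 2.64 ± 0.116 in untreated N108 cells and 2.49 ± 0.0952 in untreated M3 cells, against 1.25 ± 0.0207 in untreated WT cells. With TNF the ratio was 3.12 ± 0.453 in N108, 2.35 ± 0.0498 in M3 and 1.17 ± 0.0390 in WT. ITGA7, the chain of the main muscle laminin receptor, had group means of 20.5 to 24.1 CPM and did not pass in untreated cells. With TNF it was higher by 0.18 in N108 (adjusted p = 0.02) and 0.24 in M3 (adjusted p = 0.0019). The N108 call was lost with only the groups compared (adjusted p = 0.1). It was also lost without N108 TNF replicate 1 or 2 or WT TNF replicate 3 (adjusted p up to 0.13).

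Among the chains that bind Arg-Gly-Asp ligands, ITGB8, the β chain of αvβ8 (ENSG00000105855, chr7:20330702-20415754, plus strand), was lower in both mutant lines. It had 12.6, 12.2 and 10.1 CPM in untreated N108 libraries and 8.46, 8.92 and 5.33 CPM in untreated M3 libraries, against 31.4, 29.2 and 25.3 CPM in untreated WT libraries. With TNF it had 10.8, 9.59 and 12.8 CPM in N108, 8.30, 8.41 and 7.63 CPM in M3 and 33.8, 34.0 and 29.3 CPM in WT. The lowest WT library was well above the highest mutant library, and M3 lay below N108. The log2 fold change in untreated cells was -1.30 ± 0.15 for N108 (adjusted p = 4.9e-06, edgeR), -1.92 ± 0.16 for M3 (adjusted p = 7.4e-08) and 0.62 ± 0.16 for N108 against M3 (adjusted p = 0.01).

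ITGB5, the β chain of αvβ5, was also lower, at 128 ± 6.75 CPM in untreated N108 cells and 130.0 ± 4.05 CPM in untreated M3 cells, against 196 ± 2.73 CPM in untreated WT cells (SD, n = 3). Its log2 fold changes were -0.62 ± 0.049 (adjusted p = 5.5e-11, edgeR) and -0.59 ± 0.049 (adjusted p = 6.6e-11). ITGAV, the α chain that both β chains use, averaged 90.4 ± 3.16 CPM in untreated N108 cells and 82.6 ± 10.2 CPM in untreated M3 cells, against 91.9 ± 3.65 CPM in untreated WT cells, and did not pass in either line. With TNF it did pass as lower, by -0.26 in N108 (adjusted p = 0.0062) and -0.23 in M3 (adjusted p = 0.013). The M3 call was lost without M3 TNF replicate 3 (adjusted p = 0.055). The ratio of ITGB8 to ITGAV transcripts per kb was 0.0696 ± 0.00689 in N108, 0.0491 ± 0.00733 in M3 and 0.169 ± 0.0130 in WT, all untreated. ITGA5, the α chain of the fibronectin receptor α5β1, was slightly higher in N108 (79.1 ± 1.83 CPM, against 71.7 ± 2.48 CPM in WT; log2 fold change 0.14 ± 0.045, adjusted p = 0.012, edgeR). That call was lost without any 1 of 3 libraries (adjusted p up to 0.061). ITGB6, the β chain of αvβ6, stayed at or under 0.433 CPM in every library, and ITGB3, the β chain of αvβ3 and of the platelet receptor, stayed at or under 0.217 CPM. The untreated N108 value of ITGB3 (-1.10 ± 0.44, adjusted p = 0.048) was called at the edge of the threshold and was lost in several other settings (adjusted p up to 0.2).

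ITGA2B, the platelet receptor chain that pairs with ITGB3, averaged 3.51 ± 0.0964 CPM in untreated N108 cells and 3.58 ± 0.203 CPM in untreated M3 cells, against 4.07 ± 0.291 CPM in untreated WT cells, and did not pass in untreated cells. With TNF it was higher than in WT by 0.47 ± 0.12 in N108 (adjusted p = 0.0023) and 0.43 ± 0.12 in M3 (adjusted p = 0.0039). ITGA9, the chain of α9β1 that binds tenascin-C and osteopontin, averaged 3.74 ± 0.292 CPM in untreated N108 cells, 1.94 ± 0.405 CPM in untreated M3 cells and 2.79 ± 0.277 CPM in untreated WT cells. Its log2 fold change was 0.44 ± 0.13 for N108 (adjusted p = 0.01, edgeR) and -0.51 ± 0.15 for M3 (adjusted p = 0.005). Both calls were lost when single libraries were left out (adjusted p up to 0.053 for N108 and 0.06 for M3), while N108 against M3 gave 0.95 ± 0.14 (adjusted p = 8.4e-06).

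Of the integrins known from leukocytes, ITGAX, the α chain of CD11c/CD18 (ENSG00000140678, chr16:31355134-31382997, plus strand), had the largest rise of any tested integrin or laminin gene in either line. Untreated libraries had 1.76, 2.24 and 1.85 CPM in N108 and 1.94, 2.31 and 2.33 CPM in M3, against 0.399, 0.553 and 0.30 CPM in WT. Libraries with TNF had 2.09, 2.12 and 1.65 CPM in N108, 2.10, 2.38 and 2.01 CPM in M3 and 0.346, 0.373 and 0.244 CPM in WT. Every mutant library was well above every WT library, although all values are low. The untreated log2 fold change was 2.20 ± 0.19 for N108 (adjusted p = 1.7e-10, edgeR) and 2.36 ± 0.19 for M3 (adjusted p = 2.1e-11), which are 4.61-fold and 5.15-fold. ITGAM, its neighbour 22241 bp away on chromosome 16, averaged between 0.20 and 0.446 CPM and passed in no comparison.

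ITGB2, the β chain of these leukocyte receptors (ENSG00000160255, chr21:44885953-44931989, minus strand), did not follow ITGAX. It had 1.06, 1.00 and 0.949 CPM in untreated N108 libraries and 1.64, 1.67 and 1.72 CPM in untreated M3 libraries, against 1.76, 1.37 and 1.46 CPM in untreated WT libraries. N108 was below both other lines, with a log2 fold change of -0.62 ± 0.16 against WT (adjusted p = 0.0027, edgeR), and M3 overlapped WT (0.12 ± 0.15, adjusted p = 0.52). With TNF the values were 1.32, 1.37 and 1.18 CPM in N108, 1.30, 0.800 and 1.41 CPM in M3 and 1.28, 1.40 and 1.20 CPM in WT, so all lines overlapped. ITGB7, the β chain of the gut-homing integrins, averaged 0.241 ± 0.104 CPM in untreated M3 cells against 0.700 ± 0.177 CPM in untreated WT cells (log2 fold change -1.53 ± 0.28, adjusted p = 3.7e-05), and 1886 bp of its exons overlap ZNF740 on the other strand. ITGAE, the α chain of the receptor for E-cadherin, had group means of 15.2 to 16.6 CPM and passed in no comparison.

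ITGBL1, a secreted protein with integrin-like repeats (ENSG00000198542, chr13:101452593-101720856, plus strand), was close to undetected in N108. It had 0.0168, 0 and 0.0164 CPM in untreated N108 libraries and 0.640, 0.601 and 0.754 CPM in untreated M3 libraries, against 1.25, 1.21 and 1.20 CPM in untreated WT libraries. The untreated N108 libraries held 2 counts in all, against 117 in M3 and 236 in WT. After scaling for depth N108 was 121-fold lower than WT, with a 95% interval of 33.1 to 1004 that covers counting error only. With TNF there were again 2 counts in N108, against 219 in WT, and the values were 0, 0.0193 and 0.0167 CPM in N108, 0.595, 0.718 and 0.633 CPM in M3 and 1.34, 1.38 and 1.37 CPM in WT. M3 lay between the other lines without overlap, and its log2 fold change against WT was -0.88 ± 0.18 in untreated cells (adjusted p = 0.00014, edgeR). Its exons overlap 4354 bp of FGF14 on the other strand, and the reads of the 2 genes cannot be told apart if strand was not used in counting.

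LAMA5 made up most of the laminin α transcripts in every line, at 92.2% ± 0.453 of their level per kb in untreated N108 cells and 92.6% ± 0.233 in untreated M3 cells, against 95.9% ± 0.232 in untreated WT cells (SD, n = 3). It was lower in both mutant lines without TNF, while LAMA3 was higher in both and LAMA4 was higher mainly in N108. LAMA5 (ENSG00000130702, chr20:62307955-62367312, minus strand) had 384, 375 and 379 CPM in untreated N108 libraries and 283, 285 and 292 CPM in untreated M3 libraries, against 480.4, 505 and 506 CPM in untreated WT libraries. The 3 lines did not overlap. The log2 fold change was -0.39 ± 0.11 for N108 (adjusted p = 0.0081, edgeR) and -0.79 ± 0.11 for M3 (adjusted p = 1.6e-05). LAMA5 has a transcript GC content of 66.4%, the highest of the 36 genes, and with the GC trend of each library removed the N108 value was -0.25 (adjusted p = 0.054). With TNF the N108 libraries were not below WT (0.25 ± 0.11, adjusted p = 0.064), and M3 was lower by -0.34 ± 0.11 (adjusted p = 0.014). That M3 call was lost without WT TNF replicate 1 (adjusted p = 0.061) and with only the groups compared (adjusted p = 0.15).

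LAMA4, the α chain of vessel and muscle laminins (ENSG00000112769, chr6:112108760-112254939, minus strand), had 9.40, 9.32 and 9.55 CPM in untreated N108 libraries and 2.89, 2.58 and 2.68 CPM in untreated M3 libraries, against 2.05, 2.01 and 2.52 CPM in untreated WT libraries. Libraries with TNF held 9.14, 9.37 and 10.2 CPM in N108, 2.91, 2.62 and 2.88 CPM in M3 and 2.72, 2.39 and 2.75 CPM in WT. N108 stood apart from both other lines, with a log2 fold change of 2.12 ± 0.091 against WT (adjusted p = 6.5e-17, edgeR) and 1.79 ± 0.089 against M3 (adjusted p = 4.6e-15). The difference between M3 and WT was small, 0.32 ± 0.10 (adjusted p = 0.011), and was lost without any 1 of 3 libraries (adjusted p up to 0.062).

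LAMA3, the α chain of the hemidesmosomal laminin (ENSG00000053747, chr18:23689443-23956222, plus strand), had 8.02, 8.09 and 9.06 CPM in untreated N108 libraries and 8.65, 8.32 and 9.46 CPM in untreated M3 libraries, against 4.76, 4.44 and 5.62 CPM in untreated WT libraries. With TNF it had 8.55, 8.41 and 10.3 CPM in N108, 10.6, 8.84 and 9.33 CPM in M3 and 4.92, 5.08 and 4.39 CPM in WT. All mutant libraries lay above all WT libraries. Its untreated log2 fold change was 0.77 ± 0.097 for N108 (adjusted p = 2.6e-07, edgeR) and 0.84 ± 0.098 for M3 (adjusted p = 3.5e-08). LAMA2, the muscle laminin chain, had group means of 8.0 to 10.7 CPM and was lower in M3 (-0.30 ± 0.07, adjusted p = 0.00071). Its small difference in N108 (-0.17 ± 0.068) was called at the very edge of the threshold and was lost in several other settings (adjusted p up to 0.31). LAMA1, the embryonic α chain, stayed at or under 0.654 CPM in every library, and its calls in N108 and M3 were lost without single libraries (adjusted p up to 0.24 and 0.098).

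The β and γ chains shifted in their mix. LAMB1 and LAMC1, which join in the most widespread laminin trimers, were both higher in the mutant lines. In untreated cells LAMB2 was lower in both and LAMB3 was lower in N108. LAMB1 (chr7:107923799-108003255, minus strand) averaged 130.0 ± 2.74 CPM in untreated N108 cells and 132 ± 5.12 CPM in untreated M3 cells, against 96.1 ± 5.08 CPM in untreated WT cells (SD, n = 3). LAMC1 (chr1:183023460-183145592, plus strand) averaged 102 ± 0.20 CPM in untreated N108 cells and 102 ± 4.95 CPM in untreated M3 cells, against 78.2 ± 2.54 CPM in untreated WT cells. The log2 fold changes of LAMB1 were 0.44 ± 0.048 for N108 (adjusted p = 2.2e-08, edgeR) and 0.45 ± 0.048 for M3 (adjusted p = 5.8e-09). Those of LAMC1 were 0.38 ± 0.05 (adjusted p = 4.6e-07, edgeR) and 0.39 ± 0.05 (adjusted p = 2e-07). The ratio of LAMB1 to LAMC1 transcripts per kb stayed between 1.27 ± 0.0372 and 1.34 ± 0.0381 in all 6 group means.

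LAMB2, the β chain of nerve, muscle and kidney laminins that is also made by epithelia (ENSG00000172037, chr3:49121114-49133118, minus strand), had 142, 137 and 146 CPM in untreated N108 libraries and 133, 127 and 135 CPM in untreated M3 libraries, against 198, 204 and 190.3 CPM in untreated WT libraries. Every untreated WT library was above every untreated mutant library, with log2 fold changes of -0.48 ± 0.065 for N108 (adjusted p = 1.6e-06, edgeR) and -0.58 ± 0.065 for M3 (adjusted p = 4.6e-08). LAMB3, the β chain of the hemidesmosomal laminin, averaged 58.2 ± 1.03 CPM in untreated N108 cells and 70.9 ± 4.22 CPM in untreated M3 cells, against 71.5 ± 2.40 CPM in untreated WT cells. It differed in N108 (-0.30 ± 0.058, adjusted p = 0.00015) and overlapped WT in M3 (-0.01 ± 0.058, adjusted p = 0.89). With TNF the pattern was another one: LAMB2 gave -0.02 in N108 (adjusted p = 0.86) and -0.29 in M3 (adjusted p = 0.00055) against WT, and LAMB3 gave -0.26 in N108 (adjusted p = 0.00053) and -0.19 in M3 (adjusted p = 0.0062). The M3 call of LAMB3 was lost without M3 TNF replicate 1 (adjusted p = 0.051) or WT TNF replicate 3 (adjusted p = 0.055).

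As a share of the laminin β level per kb, LAMB1 was 32.6% ± 0.398 in untreated N108 cells and 32.0% ± 1.14 in untreated M3 cells, against 21.2% ± 0.963 in untreated WT cells (SD, n = 3). LAMB2 was 42.1% ± 0.462 in N108 and 38.1% ± 1.11 in M3, against 51.5% ± 1.59 in WT. In WT cells LAMB2 gave the largest share in all 3 untreated libraries, and it also did so in N108 and M3, by a smaller margin over LAMB1. LAMC3, a less common γ chain (ENSG00000050555, chr9:131009082-131094473, plus strand), had 28.1, 26.6 and 28.2 CPM in untreated N108 libraries and 28.8, 28.7 and 29.5 CPM in untreated M3 libraries, against 14.1, 15 and 16.3 CPM in untreated WT libraries. Libraries with TNF held 31.0, 33.3 and 27.3 CPM in N108, 26.8, 27.4 and 26.3 CPM in M3 and 13.5, 13.6 and 13.6 CPM in WT. No WT library reached a mutant library, and the untreated log2 fold change was 0.87 ± 0.063 for N108 (adjusted p = 6.5e-12, edgeR) and 0.94 ± 0.063 for M3 (adjusted p = 7e-13).

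**Figure D4:**
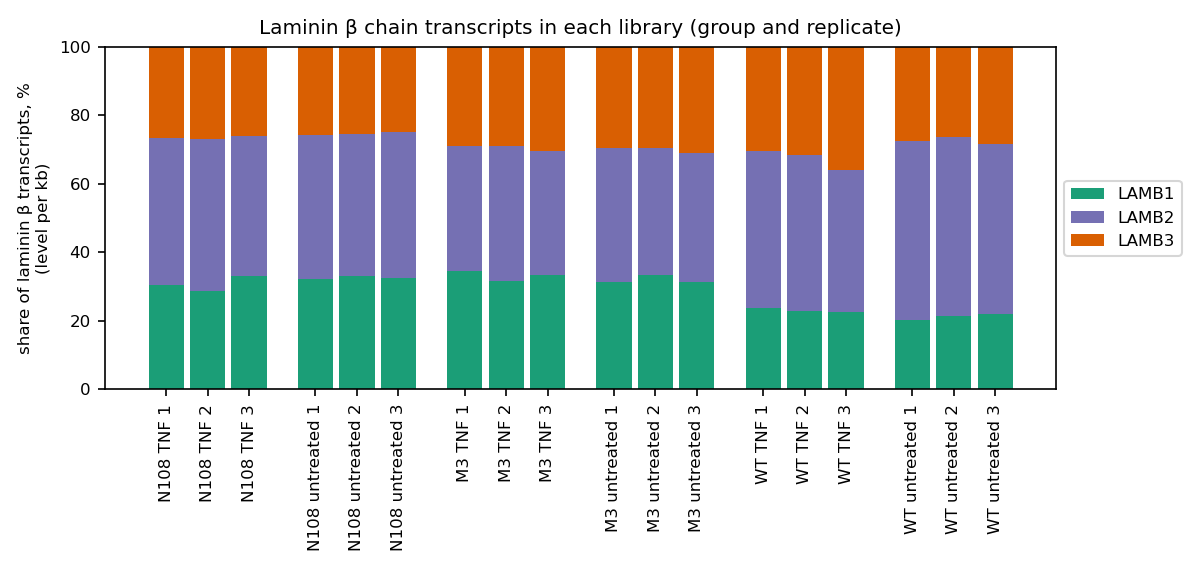
Share of LAMB1, LAMB2 and LAMB3 in the summed laminin β level per kb, in %, for each of the 18 libraries (3 replicates per group). LAMB1 holds 28.6 to 34.6% in the mutant libraries and 20.1 to 23.8% in the WT libraries.

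N108 and M3 were also set against each other in untreated cells. Of the 32 genes 13 differed, 9 higher and 4 lower in N108, beside 31.5% of all genes tested (16.4% higher and 15% lower). The higher ones were ITGA5, ITGA6, ITGA9, ITGB4, ITGB7, ITGB8, LAMA1, LAMA4 and LAMA5, and the lower ones were ITGB1, ITGB2, ITGBL1 and LAMB3. ITGA1, ITGA2, ITGAX, LAMA3, LAMB1, LAMC1 and LAMC3, all higher in both lines than in WT, did not pass between the lines, with log2 differences from -0.27 ± 0.11 for ITGA1 to -0.01 ± 0.049 for LAMC1.

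TNF changed few of these transcripts within 40 min. In WT cells 3 of the 32 genes fell and 0 rose, beside 5.18% of all genes tested (2.03% higher and 3.15% lower). These were ITGA2B, LAMB2 and LAMA5. With the GC trend of each library removed 2 rose and 4 fell in WT cells, LAMB3 (0.21, adjusted p = 0.0016) and ITGB5 (0.17, adjusted p = 0.0036) rising and ITGA1 (-0.41, adjusted p = 0.038) falling beside the same 3 genes. ITGA7 (-0.20, adjusted p = 0.058 in edgeR) passed as lower in WT under DESeq2 (adjusted p = 0.039). In edgeR it did so without the low-count filter (adjusted p = 0.043) and with the stricter filter (adjusted p = 0.037). With only the groups compared ITGA7 passed as lower (adjusted p = 0.015) and ITGB1 as higher (0.10, adjusted p = 0.046). In N108 cells 0 of 32 passed in edgeR or DESeq2, beside 1.2% of all genes (1.1% higher and 0.0998% lower), while 7 were higher and 0 lower when p-values under 0.05 were taken without adjustment (8.81% and 6.73% of all genes). The deviation of a library from its replicates had a Spearman correlation with GC content of 0.45 in N108 TNF replicate 2 and -0.52 in N108 TNF replicate 3, and with the GC trend of each library removed 0 of 32 passed as well, the log2 fold changes being 0.10 for LAMB3, 0.05 for LAMB2, 0.03 for LAMC3 and 0.05 for ITGB4, against 0.18, 0.14, 0.14 and 0.16 with the trend left in. Without N108 TNF replicate 3, 4 genes rose: LAMB3, LAMB2, LAMC3 and ITGB4. Shares of all genes here are those of the main fit, and those under the other settings are not given. In M3 cells 0 of 32 passed in either tool, beside 1.38% of all genes (1.1% higher and 0.278% lower), while 1 was higher and 1 lower by unadjusted p-values (4.63% and 4.7% of all genes).

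LAMB2 had 165, 166 and 143 CPM in WT libraries with TNF, against 198, 204 and 190.3 CPM in untreated WT libraries, which did not overlap (log2 fold change -0.32 ± 0.065, adjusted p = 0.0025, edgeR). With TNF it had 156, 173 and 139 CPM in N108 and 123, 136 and 128 CPM in M3, and both overlapped their untreated libraries. LAMA5 had 415, 376 and 284 CPM in WT libraries with TNF, against 480.4, 505 and 506 CPM in untreated WT libraries (-0.47 ± 0.11, adjusted p = 0.017, edgeR). One of the 3 WT libraries with TNF was far below the other two, and the value was -0.33 without it. With TNF LAMA5 had 418, 484 and 379.7 CPM in N108 and 294, 274 and 279 CPM in M3. The WT call was lost without untreated WT replicate 2 or 3 (adjusted p = 0.064 for each) and when the WT libraries were fitted alone (adjusted p = 0.19).

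ITGA2B (ENSG00000005961, chr17:44372180-44389505, minus strand) had 2.97, 2.58 and 2.16 CPM in WT libraries with TNF, against 3.85, 3.96 and 4.40 CPM in untreated WT libraries (-0.66 ± 0.12, adjusted p = 0.00049, edgeR). The 2 groups did not overlap. It had 3.32, 4.13 and 3.18 CPM with TNF, against 3.62, 3.47 and 3.45 CPM untreated, in N108 libraries. In M3 libraries it had 3.13, 3.42 and 3.78 CPM with TNF, against 3.58, 3.38 and 3.79 CPM untreated. Neither mutant line showed a separation by treatment.

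The difference between the responses was tested as an interaction. The response to TNF in N108 differed from that in WT for these 3 genes, 2.62% of all genes passing (2.03% higher and 0.583% lower), by 0.46 ± 0.092 for LAMB2 (adjusted p = 0.008, edgeR), 0.67 ± 0.16 for ITGA2B (adjusted p = 0.025) and 0.64 ± 0.15 for LAMA5 (adjusted p = 0.038), each higher in N108. The LAMA5 call was lost in 9 of 12 fits that each left out 1 library (adjusted p up to 0.12) and the ITGA2B call in 5 of 12 (adjusted p up to 0.11), while LAMB2 passed in all 12. The count of 3 became 8 without N108 TNF replicate 3, and 1 (LAMB2) without N108 TNF replicate 2, N108 untreated replicate 2 or WT untreated replicate 2 or 3. The shares of all genes in those fits are not given. For M3 0 of 32 passed, beside 0.315% of all genes (0.284% higher and 0.0315% lower), while 6 were higher and 2 lower by unadjusted p-values under 0.05 (5.53% and 3.37% of all genes). The M3 values were 0.29 ± 0.092 for LAMB2 (adjusted p = 0.23), 0.61 ± 0.16 for ITGA2B (adjusted p = 0.12) and 0.45 ± 0.15 for LAMA5 (adjusted p = 0.32). The 3 genes have transcript GC contents of 60.3% for LAMB2, 61.1% for ITGA2B and 66.4% for LAMA5, beside a median of 49% over all genes tested. Across the genes tested, the log2 fold change with TNF had a Spearman correlation with GC content of 0.49 in N108, -0.27 in M3 and -0.30 in WT, a description over genes that share libraries. With the GC trend removed the fall in WT was -0.26 for LAMB2 (adjusted p = 0.0024), -0.60 for ITGA2B (adjusted p = 0.00032) and -0.37 for LAMA5 (adjusted p = 0.038). The interaction was then 0.31 for LAMB2 (adjusted p = 0.043), 0.51 for ITGA2B (adjusted p = 0.094) and 0.42 for LAMA5 (adjusted p = 0.2) in N108. In M3 it was 0.27 for LAMB2 (adjusted p = 0.075), 0.59 for ITGA2B (adjusted p = 0.044) and 0.44 for LAMA5 (adjusted p = 0.18).

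**Figure D5:**
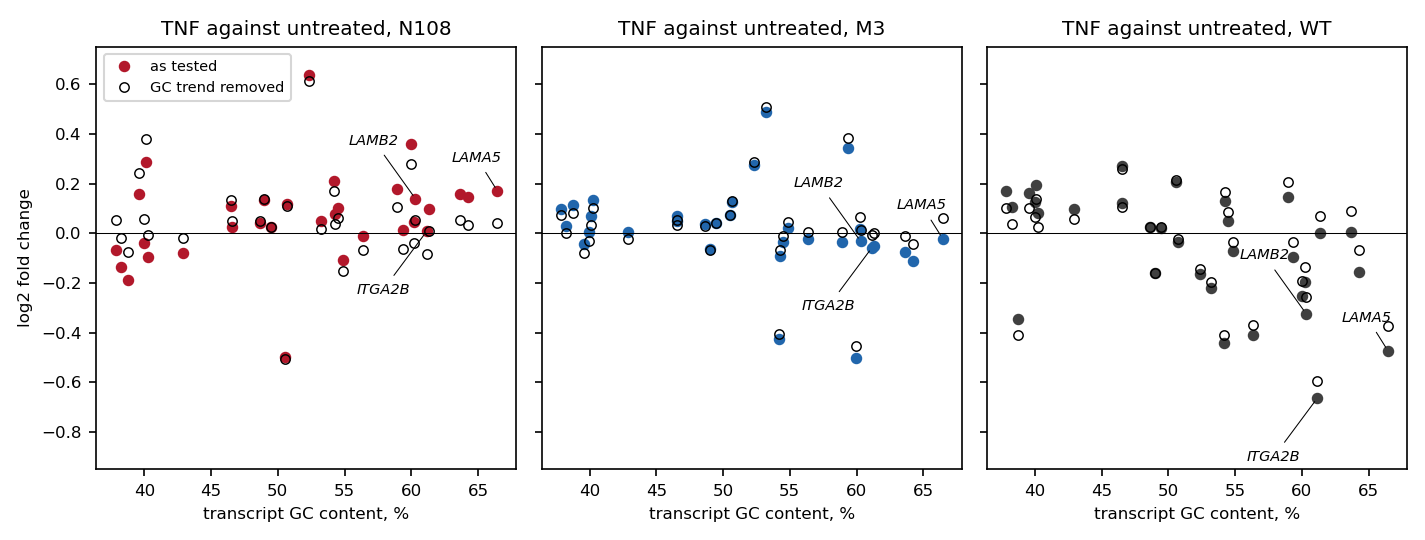
Log2 fold change with TNF of the 32 tested genes against the GC content of the longest transcript in %, in N108, M3 and WT, as tested (filled) and with the GC trend of each library removed (open). LAMB2, ITGA2B and LAMA5 fall below 0 in WT in both versions, and in N108 the high-GC genes move down when the trend is removed.

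The molecules around these receptors were followed with 4 companion lists. Of 13 tested partners of laminins in the basement membrane, 1 was higher and 8 were lower in untreated N108 cells than in WT (median log2 fold change -0.35), and 1 was higher and 9 were lower in untreated M3 cells (median -0.37), beside medians of 0.01 and 0.00 over all genes tested. For this list and those that follow, the shares of all genes are 20.9% higher and 21.6% lower in N108, and 26.1% higher and 26.8% lower in M3. COL18A1, a basement membrane collagen, was the higher one (0.19 ± 0.056, adjusted p = 0.006 for N108 and 0.29 ± 0.056, adjusted p = 8.1e-05 for M3, edgeR). AGRN, the proteoglycan agrin that binds laminin, had log2 fold changes of -0.59 ± 0.07 in N108 (adjusted p = 4.7e-07) and -0.85 ± 0.071 in M3 (adjusted p = 8.5e-10). COL15A1, a collagen next to basement membranes, averaged 0.426 ± 0.0490 CPM in untreated N108 cells and 0.0687 ± 0.0473 CPM in untreated M3 cells, against 1.97 ± 0.325 CPM in untreated WT cells. NTN4, a netrin that binds laminin γ chains, was lower in M3 by -1.40 ± 0.085 (adjusted p = 9.2e-14) and gave -0.12 ± 0.077 in N108 (adjusted p = 0.23).

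Of 19 tested integrin ligands other than laminins and basement membrane proteins, 6 were higher and 11 lower in untreated N108 cells than in WT (median -0.33), and 6 were higher and 10 lower in untreated M3 cells (median -0.52). TNC, the ligand tenascin-C of α9β1, held 13 counts in the untreated N108 libraries and 0 in the untreated M3 libraries, against 417 in the untreated WT libraries. It was 32.9-fold lower in N108 (95% interval 19.0 to 62.2). In M3 the lower end of the same kind of interval was 103-fold lower, with no upper end at 0 counts. THBS1, thrombospondin 1, averaged 14.6 ± 1.13 CPM in untreated N108 cells and 9.77 ± 0.709 CPM in untreated M3 cells, against 45.7 ± 0.775 CPM in untreated WT cells. TGFB1, whose latent form is held by the αv integrins, was higher by 0.92 ± 0.059 in N108 (adjusted p = 5.7e-13, edgeR) and 1.07 ± 0.06 in M3 (adjusted p = 1.5e-14). NPNT, the α8β1 ligand nephronectin, was higher in both lines (0.85 ± 0.055, adjusted p = 4.8e-13 in N108 and 0.46 ± 0.055, adjusted p = 5.9e-08 in M3). SPP1, osteopontin, was also higher in both (0.42 ± 0.13, adjusted p = 0.012 in N108 and 1.76 ± 0.12, adjusted p = 1.2e-12 in M3).

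Of 9 tested hemidesmosome components and other laminin receptors, 3 were higher and 4 lower in untreated N108 cells (median -0.06), and 2 were higher and 5 lower in untreated M3 cells (median -0.24). BCAM, the receptor for laminin α5, was lower by -1.08 ± 0.061 in N108 (adjusted p = 3.8e-14, edgeR) and -0.72 ± 0.061 in M3 (adjusted p = 1e-10). DAG1, dystroglycan, was lower by -0.35 ± 0.045 in N108 (adjusted p = 4.5e-07) and -0.41 ± 0.045 in M3 (adjusted p = 1.4e-08). Of 37 tested components of adhesion plaques and regulators of integrins, 5 were higher and 17 lower in N108 (median -0.14), and 3 were higher and 24 lower in M3 (median -0.25). TNS3, a tensin that links integrins to actin, averaged 45.4 ± 2.20 CPM in untreated N108 cells and 32.4 ± 1.52 CPM in untreated M3 cells, against 194 ± 7.31 CPM in untreated WT cells. FERMT1, the epithelial kindlin that activates integrins, was higher in both lines (0.39 ± 0.053, adjusted p = 9.7e-07 in N108 and 0.42 ± 0.053, adjusted p = 1.5e-07 in M3). Between the mutant lines 19 of the 37 were higher in N108 and 0 were lower, beside 16.4% higher and 15% lower over all genes. By unadjusted p-values under 0.05, 21 were higher and 0 lower, beside 20.7% and 19.7% of all genes.

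With TNF some of these neighbours did respond. In WT, by edgeR, 0 of 13 basement membrane partners rose and 2 fell, and 3 of 19 other ligands rose and 1 fell. Of 9 hemidesmosome and receptor genes 1 rose and 1 fell, and of 37 plaque genes 0 passed (all genes: 2.03% higher, 3.15% lower). In the same list order 0, 2, 1 and 0 rose in N108 and 0 fell (1.1% and 0.0998% of all genes). In M3, 0, 3, 1 and 0 rose and 0 fell (1.1% and 0.278% of all genes). SDC4, the syndecan that works beside integrins in focal adhesions, rose by 1.17 ± 0.053 in N108 (adjusted p = 1.5e-15, edgeR), 1.58 ± 0.054 in M3 (adjusted p = 1.1e-18) and 1.20 ± 0.053 in WT (adjusted p = 6.8e-16) on the log2 scale. ICAM1, the ligand of the β2 integrins, rose by 1.5 ± 0.085 in N108 (adjusted p = 5.4e-11), 2.15 ± 0.088 in M3 (adjusted p = 1e-13) and 1.29 ± 0.088 in WT (adjusted p = 1.3e-09). CCN1, a matricellular integrin ligand, rose by 0.47 ± 0.088 in N108 (adjusted p = 0.0024), 0.51 ± 0.088 in M3 (adjusted p = 0.00088) and 0.70 ± 0.078 in WT (adjusted p = 8.8e-07). These 3 genes were named after their values were seen, as list members that passed with TNF in all 3 lines.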

How the data were processed

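Total RNA of 18 libraries was sequenced in paired 50 bp reads. The submitters' processing notes name hg38, DESeq2 1.38.3, Subread 2.0.1 (with featureCounts), Trim Galore 0.6.6 and the aligner STAR 2.7.8. Neither the gene annotation nor the use of strand in counting is given in the sources read here. The authors deposited raw counts per gene, which were used, and a table of normalized log2 values, which the authors also deposited and which was only looked over.

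Genes were filtered with filterByExpr (minimum count 10), leaving 19038 genes with 99.97% of the counts. Counts were scaled by TMM and tested with edgeR 4.0.16 (quasi-likelihood, robust, 6 group means, 12 residual degrees of freedom) in R 4.3.3, with Benjamini-Hochberg adjustment over all genes tested and a threshold of 0.05. The SE is the log2 fold change divided by the square root of F. The procedure was tested on simulated data. CPM uses the TMM-scaled totals, and levels per kb use the union exon length of GENCODE 29, also the source of gene coordinates (GRCh38). Promoter windows are from RefSeq.

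The members and lists were chosen with earlier results of these data known. Values in every library are given for the genes of at least 1 CPM that differed between genotypes by the largest factors (up to 12), that passed with TNF, or that led their class per kb, and for several of their partner chains. Companion genes were named among the 3 largest changes in each direction per list, from 1 CPM, apart from exceptions stated in the text. Alternatives were DESeq2 1.42.0, its size factors, other filters, only the groups compared, a replicate block, removal of each library's GC trend (lowess, span 0.3) and leaving out each library. No 2 replicates agreed within sampling noise. With 3 libraries a group, an exact permutation test of 1 gene cannot go below p = 0.1, so none was used. Intervals cover counting error only.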

Additional observations from a re-analysis of the deposited data

Results flagged for a closer look

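For 3 genes the response to TNF in N108 cells differed from that in WT cells by a test of the difference itself (edgeR interaction, Benjamini-Hochberg adjustment). The log2 response in N108 minus that in WT was 0.46 for LAMB2 (adjusted p = 0.008), 0.67 for ITGA2B (adjusted p = 0.025) and 0.64 for LAMA5 (adjusted p = 0.038). In N108 the responses were 0.14 for LAMB2, 0.01 for ITGA2B and 0.17 for LAMA5, against -0.32, -0.66 and -0.47 for the same genes in WT. All 3 transcripts are rich in GC (60.3%, 61.1% and 66.4%), and the response over all genes followed GC content with opposite signs in N108 (Spearman 0.49) and WT (-0.30). With the GC trend removed, LAMB2 gave 0.31 (adjusted p = 0.043), ITGA2B 0.51 (adjusted p = 0.094) and LAMA5 0.42 (adjusted p = 0.2). The LAMA5 difference missed the threshold in 9 of 12 fits that each left out 1 library (adjusted p from 0.0051 to 0.12 over the 12) and with only the groups compared (adjusted p = 0.087), and the ITGA2B difference in 5 of 12 (adjusted p from 0.0067 to 0.11). LAMB2 passed in all 12 (adjusted p up to 0.032). In M3 the difference from WT was 0.29 for LAMB2, 0.61 for ITGA2B and 0.45 for LAMA5 (adjusted p = 0.23, 0.12 and 0.32), and with the GC trend removed ITGA2B passed there (0.59, adjusted p = 0.044), so the differences are not shown to be particular to N108.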

How the results depend on the processing

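Of 115 calls of integrin and laminin genes over all comparisons, 95 held under every alternative run and 0 reversed. Calls were lost by 2 results under DESeq2, 0 under its size factors, 4 without the low-count filter, 0 with the stricter filter, 4 with the GC trend removed and 6 with only the groups compared. The replicate block lost 2 calls between N108 and WT in untreated cells, LAMA2 (-0.17, adjusted p = 0.053) and ITGB3 (-1.12, adjusted p = 0.052), and same-numbered libraries did not deviate together (correlations of -0.063 to 0.103). The number of genes called for TNF in WT was 6 with the GC trend removed, with or without the replicate block (2 higher and 4 lower), in place of 3. The number whose response in N108 differed from WT was 5 without the filter, 1 with the GC trend removed and 1 with the block as well, in place of 3. For M3 against WT it was 2, 2 and 3 under the same settings, in place of 0. Shares of all genes under these settings, or with a library left out, are not given.

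Leaving out 1 library gave 21 to 23 genes for N108 against WT and 20 to 22 for M3 against WT in untreated cells, 21 to 24 and 22 to 25 with TNF, and 13 to 15 for N108 against M3. For TNF it gave 2 to 3 in WT, 0 to 4 in N108 and 0 to 0 in M3, and for the difference in response 1 to 8 in N108 and 0 to 1 in M3. The cause was not tested. Calls lost most often were those of LAMA5 for the difference in response and of LAMA2 and ITGB3 between N108 and WT. Whether loss followed level was not tested.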
